A study of Mus musculus with 8 samples.

Results

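The 40 genes described here encode the Integrator complex, the machinery that cleaves and polyadenylates nuclear pre-mRNA, the termination exonuclease Xrn2 and the cytoplasmic polyadenylation element binding (CPEB) proteins. They were taken by symbol from a count table of 27179 genes and comprise 14 Integrator genes, 21 cleavage and polyadenylation genes, Xrn2 and 4 Cpeb genes. All 40 passed the filter on low counts, which left 16074 genes. RNA came from the cerebral cortex of mouse embryos in 2 groups, 4 Taf8-deleted embryos (Taf8 -/lox, that is 1 null and 1 loxP-flanked allele) and 4 Taf8-intact embryos (Taf8 +/+), with 1 library per embryo. Taf8 is part of TFIID, which places RNA polymerase II at core promoters. The sources used here give neither strain, stage nor the recombinase that acts on the loxP-flanked allele. The intact embryos carry no modified Taf8 allele. Whether they carry a recombinase is not stated, so they cannot be taken as a control for one.

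Transcripts of RNA polymerase II acquire their 3′ ends by cleavage. For most mRNAs, the cleavage and polyadenylation specificity factor (CPSF) binds the poly(A) signal and cuts, helped by the cleavage stimulation factor (CstF) and cleavage factors I and II, after which a poly(A) polymerase adds the tail. Xrn2 then degrades the downstream RNA and releases the polymerase. Integrator carries a related endonuclease and a phosphatase, forms the ends of small nuclear RNAs and terminates polymerases paused near promoters. CPEB proteins act later, in the cytoplasm, on tail length and translation, including in neurons.

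The libraries held 39590959 to 44788200 counts, and the 40 genes took 0.442% to 0.448% of them in deleted and 0.411% to 0.432% in intact cortex. These are shares of raw totals, before scaling between libraries with TMM factors. The factors were 1.01 to 1.03 in deleted and 0.971 to 0.987 in intact libraries. The targeted gene matched every label: Taf8 had 30, 14, 29 and 14 counts in the deleted libraries, against 1491, 1383, 1222 and 1403 counts in the intact libraries. The animal numbers were 456.1, 472.1, 477.1 and 486.1 for the deleted embryos and 408.4, 408.5, 408.6 and 409.2 for the intact embryos. No number before the point was shared between the groups, so whatever it marks cannot be told apart from the genotype. In the intact group 3 of the 4 embryos had the number 408, whereas each deleted embryo had its own; the labels do not say whether these embryos are littermates. The cortical transcription factor genes Emx1 and Tbr1 were expressed in every library. CPM are counts scaled to the library size times its TMM factor. Emx1 had 46.2 to 54.4 CPM in deleted and 56.1 to 66.0 CPM in intact libraries. Tbr1 had 285 to 317 CPM in deleted and 379 to 402 CPM in intact libraries. These 2 genes and the neuronal Neurod6 fell, the progenitor genes Lhx2 and Pax6 rose by 0.20 ± 0.05 and 0.48 ± 0.07 (log2 ± SE), and Emx2 was not called. Marker levels of cell types moved with the genotype: 11 of 12 markers of postmitotic neurons fell, and 6 of 9 radial glia markers rose while 2 fell. All 6 endothelial and all 5 pericyte markers rose, and 6 of 7 interneuron markers fell while 1 rose. Of all tested genes, 30.6% rose and 32.9% fell. The neuronal markers summed to 5662 to 6165 CPM in deleted and 7773 to 8539 CPM in intact libraries, and the radial glia markers to 3122 to 3347 CPM and 2182 to 2499 CPM in deleted and intact libraries. Choroid plexus markers summed to 907 CPM in deleted library 1 and 2.19 to 145 CPM in the other deleted libraries, and to 288 CPM in intact library 4 and 4.24 to 13.0 CPM in the other intact libraries. Meningeal markers reached 116 and 146 CPM in deleted libraries 2 and 3, beside 18.7 and 60.9 CPM in the other deleted and 15.9 to 36.9 CPM in the intact libraries. Leaving out either pair of libraries ended the calls of Cpsf7, Clp1 and Cpeb4 and of no other of the 24 called genes. In whole tissue, fewer cells of a type and less RNA per cell cannot be told apart, and the part of these shifts in the results below was not tested.

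In Taf8-deleted cortex the genes of the 3′-end machinery changed in both directions and by small amounts, with a single gene, Ints7, at 51.3% of its level in intact cortex. Of the 40 genes, 13 rose and 11 fell (edgeR's quasi-likelihood test, adjusted p under 0.05). That is 24 of 40, where 63.5% of all tested genes were called, 30.6% higher and 32.9% lower. The share of called genes was thus near the background. Among genes with a mean of at least 10 CPM, a level chosen after the values were seen, 24 of 38 members (63.2%) and 70.0% of all genes were called, with 29.9% of all genes higher and 40.1% lower. The median log2 fold change, deleted minus intact, was 0.03 over the 40 genes and 0.00 over all genes tested. The scaling between libraries centres the latter, so it is not a finding. All changes are relative to the other genes of a library, and a change shared by most genes cannot be seen in these counts. The median absolute log2 fold change was 0.17 over the 40 genes, against 0.27 over all genes tested, and 0.18 against 0.21 among those with at least 10 CPM. The groups did not overlap for 23 of the 40 genes, with the deleted libraries above in 13 and below in 10, where 57.7% of all genes did not overlap, 27.6% with the deleted libraries above and 30.1% with them below. When edgeR tested for changes beyond 1.5-fold, 1 of the 40 passed, Ints7, which fell, where 10.9% of all tested genes passed, 5.80% higher and 5.08% lower. No member passed that test upward, also not at an unadjusted p under 0.05.

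**Figure D1:**
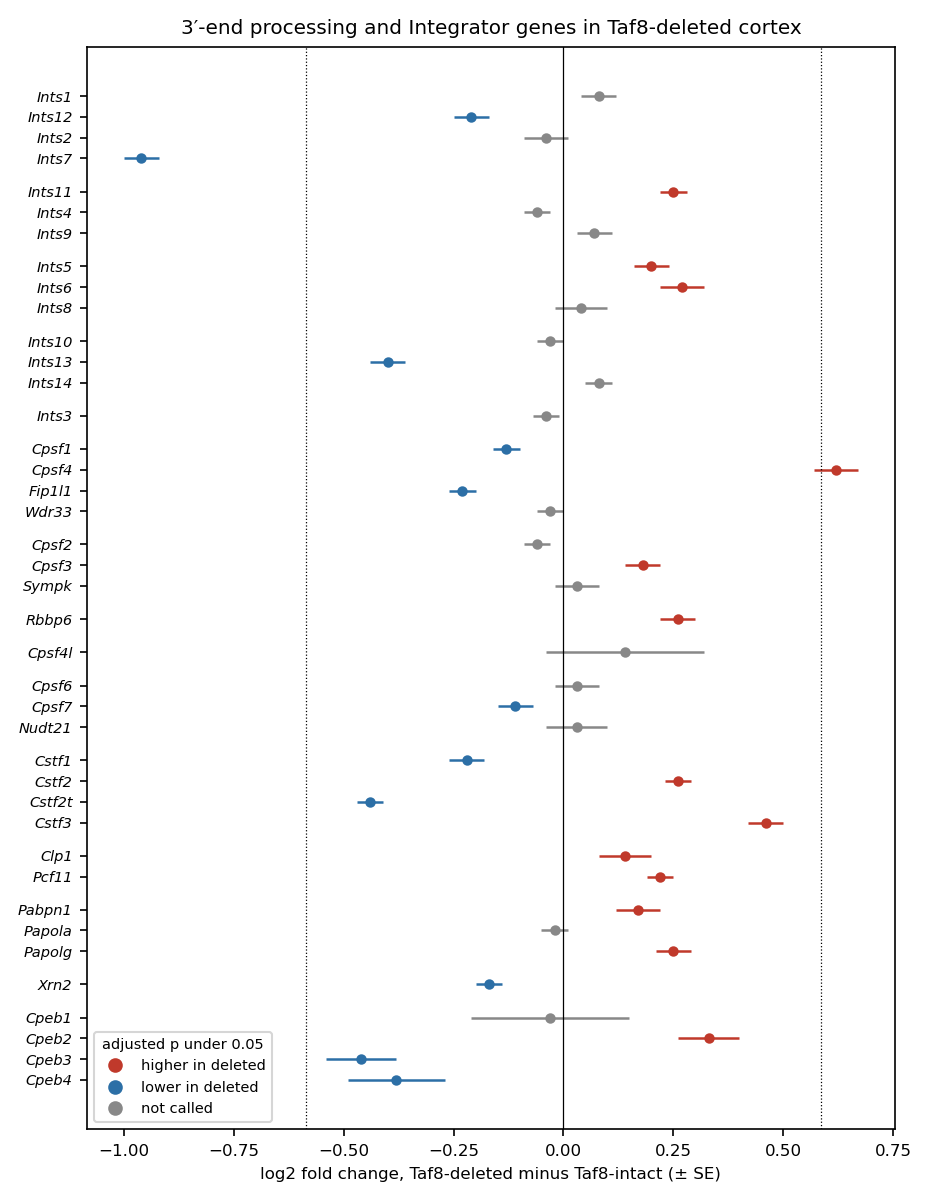
Log2 fold change (x axis, Taf8-deleted minus Taf8-intact, n = 4 libraries each) of each of the 40 genes (y axis, grouped by role), with bars of 1 SE and dotted lines at a 1.5-fold change. Ints7 lies far to the left at -0.96, Cpsf4 furthest to the right at 0.62, and 16 grey points were not called.

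**Figure D2:**
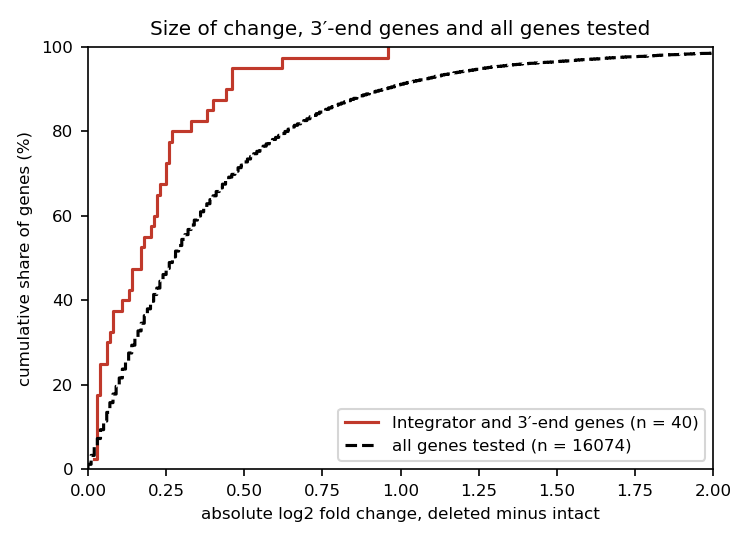
Cumulative share (y axis, %) of the 40 genes (solid) and of all 16074 genes tested (dashed) against the absolute log2 fold change (x axis, deleted minus intact, shown up to 2). The solid line lies above the dashed one over most of the axis, with medians of 0.17 and 0.27.

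Promoter windows were compared for the members. RefSeq windows of 250 bases before to 50 bases after the first listed start (GRCm38.p6) were found for 33 of the 40 genes and for 12145 of the tested genes. For Ints7 and Cpeb3 the start used by this table lies 96 and 149 bases inside the outer end of the gene. The windows are shown for the 2 genes with the largest rise, the 2 with the largest fall, and the Cstf2 and Cstf2t pair that moved apart. Capitals mark matches, on either strand, to the TATA box (TATAAA), the CCAAT box, the GC box (GGGCGG), GCGCATGCG (the core of NRF1 sites), CCGGAAGT (an ETS site), TGACGTCA (the cAMP response element) and AAGATGGCG (a YY1 site).
Cpsf4, chr5:145166963-145167262, + strand: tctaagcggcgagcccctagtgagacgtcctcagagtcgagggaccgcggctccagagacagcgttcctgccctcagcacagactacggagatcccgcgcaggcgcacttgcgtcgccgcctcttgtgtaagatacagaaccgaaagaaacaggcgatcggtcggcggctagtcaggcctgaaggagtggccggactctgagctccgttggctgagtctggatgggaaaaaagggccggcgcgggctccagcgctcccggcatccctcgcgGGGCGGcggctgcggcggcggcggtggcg
Cstf3, chr2:104590234-104590533, + strand: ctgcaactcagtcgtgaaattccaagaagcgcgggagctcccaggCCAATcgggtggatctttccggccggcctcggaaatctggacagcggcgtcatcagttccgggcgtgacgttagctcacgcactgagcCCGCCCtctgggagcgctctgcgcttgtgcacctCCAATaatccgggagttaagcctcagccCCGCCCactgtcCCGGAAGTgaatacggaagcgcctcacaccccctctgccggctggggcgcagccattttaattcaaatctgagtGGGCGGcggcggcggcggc
Ints7, chr1:191575386-191575685, + strand: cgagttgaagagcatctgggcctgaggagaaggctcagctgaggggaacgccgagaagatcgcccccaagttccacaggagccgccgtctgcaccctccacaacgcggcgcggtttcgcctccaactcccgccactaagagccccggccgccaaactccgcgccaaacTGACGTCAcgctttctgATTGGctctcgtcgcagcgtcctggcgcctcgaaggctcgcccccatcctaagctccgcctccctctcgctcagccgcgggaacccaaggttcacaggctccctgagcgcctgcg
Cpeb3, chr19:37207422-37207721, - strand: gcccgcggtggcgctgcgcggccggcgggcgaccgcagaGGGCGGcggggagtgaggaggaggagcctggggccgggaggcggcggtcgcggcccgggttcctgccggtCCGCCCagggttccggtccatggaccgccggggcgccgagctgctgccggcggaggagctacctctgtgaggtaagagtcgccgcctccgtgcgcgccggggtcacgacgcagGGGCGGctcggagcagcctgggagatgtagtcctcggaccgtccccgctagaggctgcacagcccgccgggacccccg
Cstf2, chrX:134058926-134059225, + strand: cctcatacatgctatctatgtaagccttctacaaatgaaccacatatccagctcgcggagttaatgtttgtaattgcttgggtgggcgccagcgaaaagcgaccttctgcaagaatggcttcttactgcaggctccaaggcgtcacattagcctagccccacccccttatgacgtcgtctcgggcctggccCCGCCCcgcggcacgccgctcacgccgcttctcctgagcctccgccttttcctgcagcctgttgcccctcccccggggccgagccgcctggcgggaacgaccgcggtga
Cstf2t, chr19:31082591-31082890, + strand: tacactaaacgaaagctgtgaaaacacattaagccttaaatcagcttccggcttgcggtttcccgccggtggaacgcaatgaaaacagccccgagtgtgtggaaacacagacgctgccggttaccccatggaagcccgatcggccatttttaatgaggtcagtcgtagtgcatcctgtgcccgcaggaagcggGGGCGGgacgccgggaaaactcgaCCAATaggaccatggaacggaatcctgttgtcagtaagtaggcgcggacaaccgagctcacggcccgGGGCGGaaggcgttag

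TATAAA was in 1 of the 33 windows (3.03%), that of Cpeb1, and in 7.3% of the windows of tested genes. The cAMP response element was in 1 of 33, that of Ints7, and in 3.19% of the windows of tested genes. CCAAT was in 16 (48.5%, against 38.6%), GGGCGG in 21 (63.6%, against 63.1%), CCGGAAGT in 7 (21.2%, against 7.44%), GCGCATGCG in 3 (9.09%, against 3.39%) and AAGATGGCG in 2 (6.06%, against 2.8%). The 7 windows with CCGGAAGT belong to genes that rose (Cpsf3, Cstf3), fell (Cpeb4, Cpsf7, Xrn2) and were not called (Ints1, Nudt21). No motif occurred in all 6 windows shown, and the GC box was in each of them but that of Ints7.

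Ints7 was the member that moved furthest. It encodes a subunit of the Integrator backbone, the scaffold on which the other modules assemble. The gene lies on chromosome 1 from 191575540 to 191623690 (GRCm38, gene ID 77065). Ints7 had 51.7, 49.1, 54.6 and 50.6 CPM in the deleted libraries, against 96.6, 105, 95.5 and 105 CPM in the intact libraries. Every deleted library lay far below every intact one. The mean was 51.5 ± 2.34 CPM in deleted and 100 ± 5.12 CPM in intact cortex (SD, n = 4 each). Ints7 fell by 0.96 ± 0.04 (SE) on the log2 scale, to 51.3% of its intact level (edgeR adjusted p = 6.04e-09). A total of 90.3% of all tested genes had a smaller absolute log2 fold change. None of its exons overlaps an exon of another gene in GENCODE M21.

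The other backbone genes did not follow Ints7 in size. Ints12, which encodes a small subunit with a PHD finger, had 24.0, 26.1, 23.9 and 24.5 CPM in the deleted libraries, against 27.8, 29.0, 28.1 and 28.9 CPM in the intact libraries. The groups did not overlap, and Ints12 fell by 0.21 ± 0.04 (log2 ± SE, edgeR adjusted p = 0.00136). Ints1, the gene of the largest subunit, had 223, 215, 224 and 201 CPM in the deleted libraries, against 217, 198, 197 and 203 CPM in the intact libraries, and was not called (log2 fold change 0.08 ± 0.04, edgeR adjusted p = 0.125). Ints2, another backbone gene, had 85.7, 79.6, 76.4 and 88.9 CPM in the deleted libraries, against 90.4, 83.3, 83.1 and 81.8 CPM in the intact libraries. It was not called either (log2 fold change -0.04 ± 0.05, edgeR adjusted p = 0.551).

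The endonuclease and phosphatase modules held the Integrator genes that rose. Ints11, the catalytic endonuclease, had 93.0, 92.9, 96.2 and 96.3 CPM in the deleted libraries, against 81.6, 78.7, 77.1 and 81.2 CPM in the intact libraries, and rose by 0.25 ± 0.03 (log2 ± SE, edgeR adjusted p = 2.31e-05). All deleted libraries were above all intact ones. Exons of Pusl1 on the opposite strand cover 22.7% of the exonic bases of Ints11, and unstranded reads there cannot be assigned. Its partners in the cleavage module were not called, with overlapping groups. Ints9, an inactive paralog of the nuclease, had 53.7, 51.9, 54.2 and 54.2 CPM in the deleted libraries, against 51.8, 51.6, 48.7 and 52.1 CPM in the intact libraries (log2 fold change 0.07 ± 0.04). Ints4, the scaffold of the module, had 85.1, 89.6, 85.1 and 87.3 CPM in the deleted libraries, against 92.5, 92.7, 86.7 and 90.5 CPM in the intact libraries (log2 fold change -0.06 ± 0.03). The phosphatase module held the other risers. Ints6, which helps to hold protein phosphatase 2A on the complex, had 49.8, 49.7, 45.2 and 47.5 CPM in the deleted libraries, against 40.7, 41.9, 37.9 and 38.5 CPM in the intact libraries. The groups were again separate, and Ints6 rose by 0.27 ± 0.05 (log2 ± SE, edgeR adjusted p = 2.45e-04). Ints5 rose by 0.20 ± 0.04, with 14.3% of its exonic bases shared with a gene model on the same strand. Ints8, the other shoulder subunit, had 116, 133, 115 and 136 CPM in the deleted libraries, against 127, 127, 117 and 117 CPM in the intact libraries. Its groups overlapped and it was not called (log2 fold change 0.04 ± 0.06).

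In the arm of the complex formed with Ints10 and Ints14, Ints13 fell while its partners were not called. Ints13 had 46.7, 50.5, 48.7 and 51.7 CPM in the deleted libraries, against 65.1, 65.6, 65.2 and 64.0 CPM in the intact libraries. The intact libraries lay close together and all above the deleted ones. Ints13 fell by 0.40 ± 0.04 (log2 ± SE), to 76.0% of its intact level (edgeR adjusted p = 1.76e-06). Ints10 had 88.2, 85.9, 86.5 and 92.4 CPM in the deleted libraries, against 91.1, 87.9, 89.6 and 90.6 CPM in the intact libraries, and these overlapped (log2 fold change -0.03 ± 0.03). Ints14 averaged 51.5 ± 1.35 CPM in deleted and 48.8 ± 0.892 CPM in intact cortex (SD, n = 4 each), with groups that did not overlap (log2 fold change 0.08 ± 0.03, edgeR adjusted p = 0.0650). It was called higher in 8 of 20 alternatives. Ints3, which Integrator shares with the single-stranded DNA binding SOSS complex, had 176, 171, 173 and 178 CPM in the deleted libraries, against 179, 180, 175 and 181 CPM in the intact libraries. The groups overlapped and Ints3 was not called (log2 fold change -0.04 ± 0.03). Of the 14 Integrator genes, 3 thus rose and 3 fell, 42.9% of them, beside 63.5% of all genes. This lower share depended on the settings: 6 rose and 3 fell with upper-quartile factors, with library totals only or with genes above 1 CPM in 4 libraries, and 5 rose without deleted library 4. Their summed level was 1215 to 1231 CPM in deleted and 1216 to 1276 CPM in intact libraries, and the groups overlapped.

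**Figure D3:**
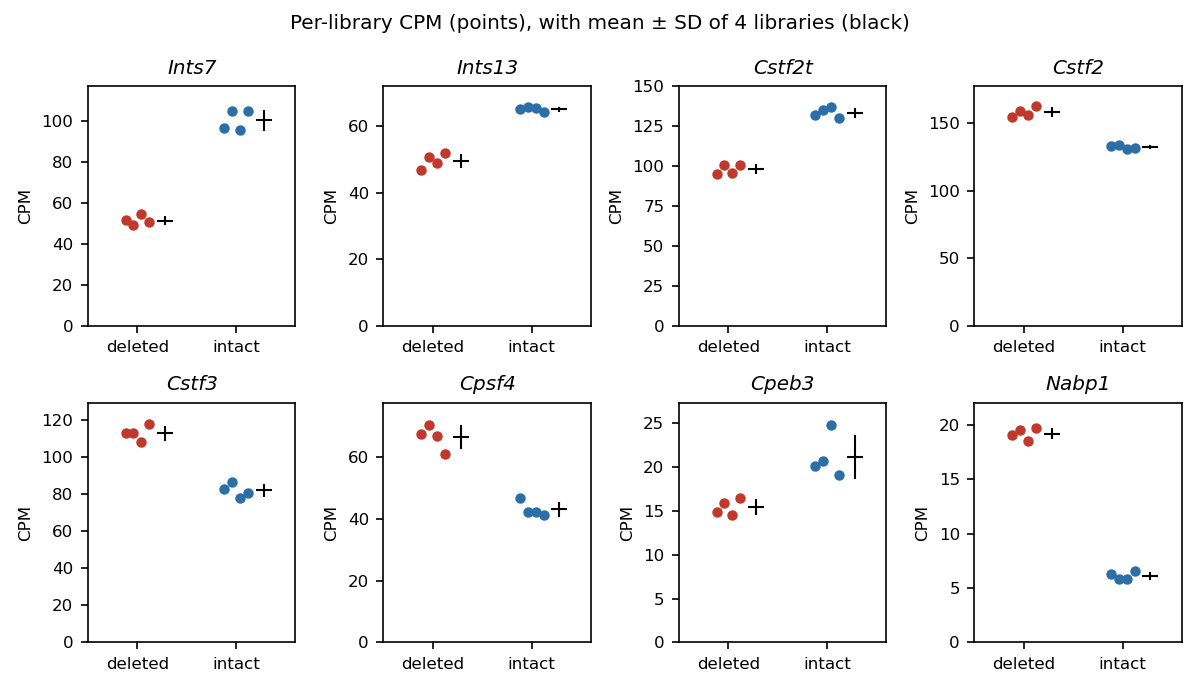
CPM (y axes, from 0) of 8 genes in each of the 4 Taf8-deleted (left, red) and 4 Taf8-intact libraries (right, blue), with the mean ± SD of each group in black. In every panel the groups are apart; Ints7 averages 51.5 CPM in deleted and 100 CPM in intact cortex, and Nabp1 19.2 and 6.10 CPM.

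The module of CPSF that reads the poly(A) signal changed in opposite directions. Cpsf4, a zinc finger subunit that contacts the signal, showed the largest rise of the 40 genes. It had 67.3, 70.3, 66.8 and 61.0 CPM in the deleted libraries, against 46.6, 42.2, 42.3 and 41.2 CPM in the intact libraries. The lowest deleted library was above the highest intact one, and Cpsf4 rose by 0.62 ± 0.05 (log2 ± SE), to 1.54 times its intact level (edgeR adjusted p = 5.37e-07). It did not pass the 1.5-fold test. Fip1l1, which links the module to the poly(A) polymerase, had 111, 111, 111 and 112 CPM in the deleted libraries, against 132, 135, 128 and 128 CPM in the intact libraries. Its deleted libraries were almost equal and all lower, and Fip1l1 fell by 0.23 ± 0.03 (log2 ± SE, edgeR adjusted p = 3.86e-05). Cpsf1, the large scaffold subunit, fell by 0.13 ± 0.03 (edgeR adjusted p = 0.00412), a call that was lost with library totals only (adjusted p = 0.0912) and with upper-quartile factors (adjusted p = 0.0644). Wdr33, which recognises the signal together with Cpsf4, had 136, 143, 142 and 142 CPM in the deleted libraries, against 142, 149, 141 and 144 CPM in the intact libraries. These overlapped, and Wdr33 was not called (log2 fold change -0.03 ± 0.03). Cpsf4l, a paralog of Cpsf4, had only 2.65 to 4.51 CPM in deleted and 2.66 to 3.70 CPM in intact libraries and was not called (log2 fold change 0.14 ± 0.18).

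In the cleavage module, the endonuclease gene Cpsf3 rose slightly, and its partners were not called. Cpsf3 had 107, 109, 104 and 107 CPM in the deleted libraries, against 102, 89.7, 95.2 and 90.0 CPM in the intact libraries. The groups were separated by a narrow gap, and Cpsf3 rose by 0.18 ± 0.04 (log2 ± SE, edgeR adjusted p = 0.00253). Cpsf2, an inactive paralog of the nuclease, had 119, 128, 124 and 123 CPM in the deleted libraries, against 130, 131, 127 and 126 CPM in the intact libraries (log2 fold change -0.06 ± 0.03). The scaffold gene Sympk had 252, 242, 261 and 242 CPM in the deleted libraries, against 256, 255, 223 and 244 CPM in the intact libraries (log2 fold change 0.03 ± 0.05). Neither was called, and the groups of both overlapped. Rbbp6, which activates cleavage, had 212, 200, 194 and 203 CPM in the deleted libraries, against 176, 169, 167 and 165 CPM in the intact libraries. All deleted libraries were higher, and Rbbp6 rose by 0.26 ± 0.04 (edgeR adjusted p = 5.83e-05).

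All 4 CstF genes were called, 2 upward and 2 downward, where 63.5% of all tested genes were called. CstF binds the GU-rich element downstream of the cleavage site. Cstf3, the scaffold of the complex, had 113, 113, 108 and 118 CPM in the deleted libraries, against 83.0, 86.5, 78.2 and 80.9 CPM in the intact libraries. It rose by 0.46 ± 0.04 (log2 ± SE), to 1.37 times its intact level (edgeR adjusted p = 9.08e-07). Cstf1, a WD repeat subunit, had 39.0, 38.7, 41.0 and 37.5 CPM in the deleted libraries, against 47.9, 45.3, 43.4 and 45.0 CPM in the intact libraries, and fell by 0.22 ± 0.04 (edgeR adjusted p = 7.22e-04). Neither gene had overlapping groups.

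The genes of the 2 forms of the RNA-binding CstF subunit moved apart. Cstf2, on the X chromosome, had 155, 159, 156 and 163 CPM in the deleted libraries, against 133, 134, 131 and 132 CPM in the intact libraries, and rose by 0.26 ± 0.03 (log2 ± SE, edgeR adjusted p = 1.49e-05). Its autosomal paralog Cstf2t, a gene of 1 exon on chromosome 19 known for its role in male germ cells, had 95.1, 101, 95.7 and 101 CPM in the deleted libraries, against 132, 135, 137 and 130 CPM in the intact libraries. Cstf2t fell by 0.44 ± 0.03 (edgeR adjusted p = 3.55e-07). The ratio of Cstf2t to Cstf2 counts within a library, which no scaling between libraries can alter, was 0.615, 0.632, 0.613 and 0.619 in the deleted libraries, against 0.996, 1.01, 1.04 and 0.986 in the intact libraries. The paralogs had nearly equal counts in intact cortex, and Cstf2 led in every deleted library. Per kilobase of gene length, Cstf2 averaged 36.4 CPM in deleted and 30.5 CPM in intact cortex, and Cstf2t averaged 26.2 CPM in deleted and 35.6 CPM in intact cortex. The sources used here do not say how reads that match both paralogs were counted. The sex of the embryos was not a covariate of the test. Cstf2t lies within the span of Prkg1, which was not called (5.34 ± 0.577 CPM in deleted and 5.57 ± 0.475 CPM in intact cortex, SD, n = 4 each).

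**Figure D4:**
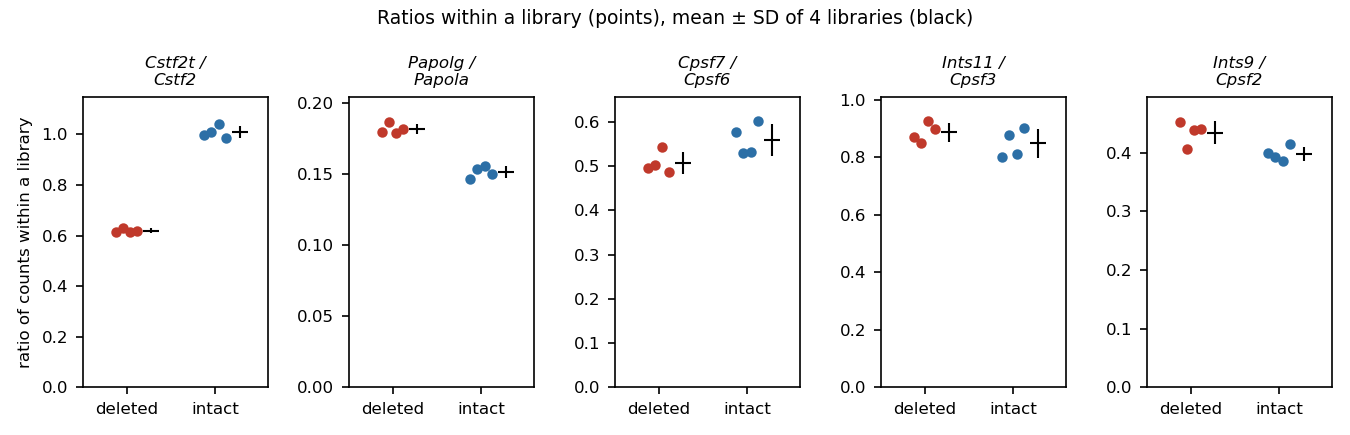
Ratio of the counts of 5 paralog pairs within a library (y axes, from 0) in the 4 Taf8-deleted (left, red) and 4 Taf8-intact libraries (right, blue), with the mean ± SD of each group in black. The Cstf2t to Cstf2 ratio averages 0.620 in deleted and 1.01 in intact cortex; the groups also part for Papolg to Papola and overlap for the other 3 pairs.

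Cleavage factor I, whose dimers select upstream UGUA sites and favour distal poly(A) sites, held 1 called gene, Cpsf7, of 3. Nudt21, the subunit that binds RNA, had 11.5, 12.5, 13.1 and 13.0 CPM in the deleted libraries, against 12.1, 13.0, 12.5 and 11.5 CPM in the intact libraries, and was not called (log2 fold change 0.03 ± 0.07, 95% interval -0.10 to 0.16). Cpsf6, which pairs with Nudt21, had 311, 291, 289 and 327 CPM in the deleted libraries, against 301, 313, 307 and 271 CPM in the intact libraries. Its groups overlapped and it was not called (log2 fold change 0.03 ± 0.05, 95% interval -0.07 to 0.13). Cpsf7, the alternative partner of Nudt21, fell by 0.11 ± 0.04 (edgeR adjusted p = 0.0227). This call was lost in 9 of 20 alternatives, with an adjusted p of 0.281 with library totals only, and among single libraries without deleted library 1 (0.0676), deleted library 2 (0.118), intact library 1 (0.0664) or intact library 2 (0.0628). Both genes of cleavage factor II, which couples cleavage to termination, rose, as did 30.6% of all tested genes. Pcf11, which binds the polymerase tail, had 102, 101, 97.4 and 95.9 CPM in the deleted libraries, against 88.5, 84.6, 82.2 and 84.1 CPM in the intact libraries. It rose by 0.22 ± 0.03 (log2 ± SE, edgeR adjusted p = 1.21e-04). Clp1, an RNA kinase gene, rose by 0.14 ± 0.06 with an edgeR adjusted p = 0.0420. This call was lost in 8 of 20 alternatives, where the adjusted p was 0.0626 with no filter on low counts and 0.0585, 0.0900, 0.101 and 0.0826 without deleted library 2, deleted library 4, intact library 2 or intact library 4.

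Of the tail-making genes, the less abundant polymerase rose. Papolg had 60.5, 63.7, 60.6 and 63.9 CPM in the deleted libraries, against 52.4, 54.4, 51.1 and 51.5 CPM in the intact libraries, and rose by 0.25 ± 0.04 (log2 ± SE, edgeR adjusted p = 6.93e-05). Papola, the main nuclear poly(A) polymerase, had 336, 340, 338 and 352 CPM in the deleted libraries, against 357, 354, 328 and 343 CPM in the intact libraries. It was not called (log2 fold change -0.02 ± 0.03, 95% interval -0.09 to 0.05). The ratio of Papolg to Papola counts was 0.182 ± 0.00348 in deleted and 0.152 ± 0.00400 in intact cortex (SD, n = 4 each), without overlap. Pabpn1, the nuclear poly(A) binding protein that controls tail length, had 319, 301, 311 and 334 CPM in the deleted libraries, against 303, 289, 272 and 264 CPM in the intact libraries. The groups overlapped, and Pabpn1 rose by 0.17 ± 0.05 (edgeR adjusted p = 0.00770). Exons of a gene model on the same strand cover 21.4% of its exonic bases. Xrn2, the termination exonuclease, fell by 0.17 ± 0.03 (edgeR adjusted p = 5.09e-04), with 142, 151, 144 and 147 CPM in the deleted libraries, against 167, 167, 161 and 163 CPM in the intact libraries.

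The Cpeb genes had standard errors of 0.07 to 0.18 on the log2 scale, against a median of 0.04 over the 40 genes. Cpeb3, which represses translation of synaptic mRNAs in neurons, had 14.9, 15.9, 14.5 and 16.5 CPM in the deleted libraries, against 20.1, 20.7, 24.8 and 19.1 CPM in the intact libraries. The groups did not overlap, and Cpeb3 fell by 0.46 ± 0.08 (log2 ± SE), to 72.8% of its intact level (edgeR adjusted p = 3.04e-04). Cpeb4 had 40.3, 35.6, 39.8 and 46.0 CPM in the deleted libraries, against 44.7, 49.3, 62.5 and 53.2 CPM in the intact libraries. The groups overlapped, and Cpeb4 fell by 0.38 ± 0.11 (edgeR adjusted p = 0.0149), a call lost without deleted libraries 2 and 3 (log2 fold change -0.28, adjusted p = 0.116). Cpeb2 went the other way, with 49.3, 43.2, 41.8 and 48.6 CPM in the deleted libraries, against 34.3, 35.8, 41.1 and 34.4 CPM in the intact libraries. It rose by 0.33 ± 0.07 (edgeR adjusted p = 0.00158). Cpeb1, the founding member of the family, was near 1 CPM throughout, at 0.798 to 1.04 CPM in deleted and 0.803 to 1.09 CPM in intact libraries, and was not called. Intact library 3 was the highest intact library for Cpeb2, Cpeb3 and Cpeb4, and also for the summed neuronal markers, at 8539 CPM beside 7773 to 7962 CPM in the other intact libraries. The part of the neuronal share in the Cpeb values was not tested.

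**Figure D5:**
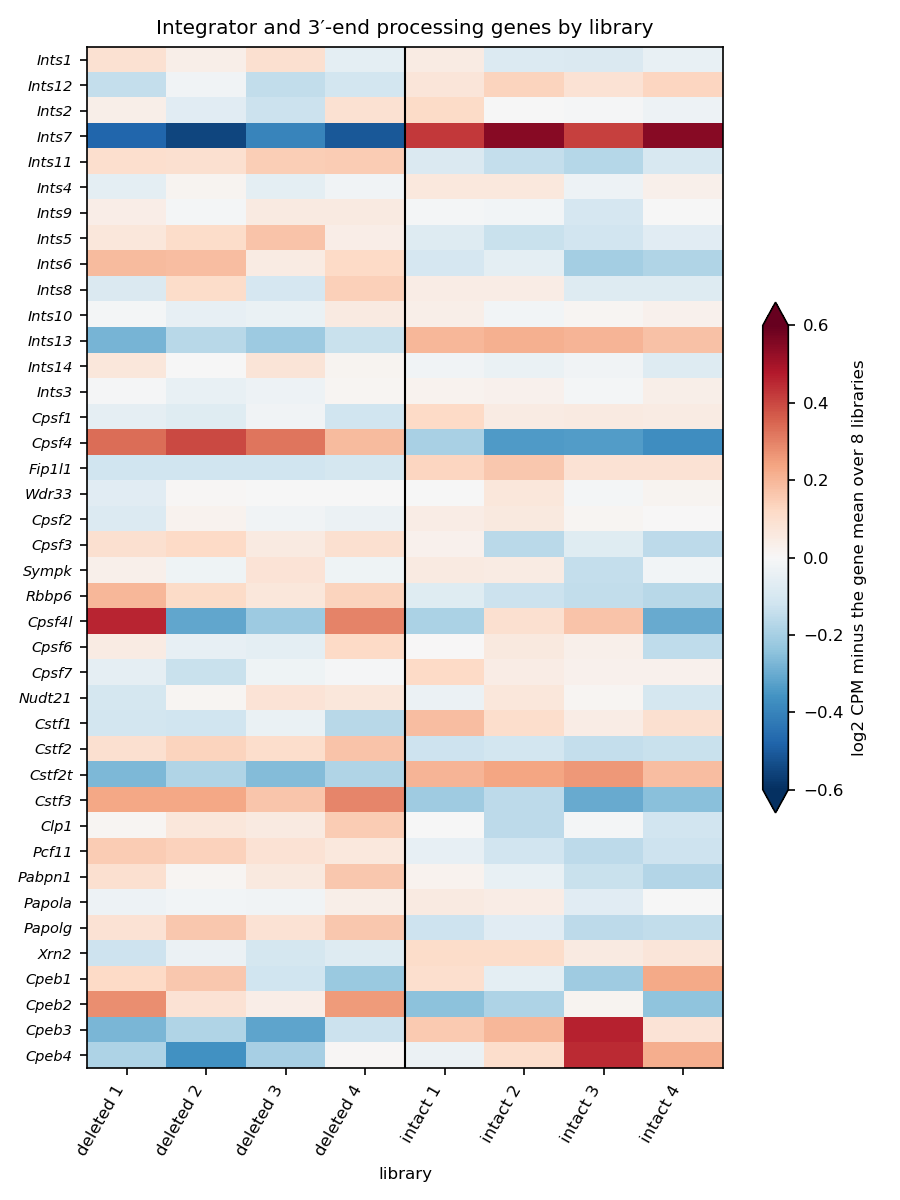
Log2 CPM minus the mean over the 8 libraries (colour, from -0.6 to 0.6) for each of the 40 genes (rows, by role) in the Taf8-deleted (left of the line) and Taf8-intact libraries (right). Ints7, Cpsf4, Cstf2t, Cstf3 and Ints13 lie on one side of the mean in all libraries of a group, whereas Cpsf4l and Cpeb1 lie on both sides in each group.

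Per kilobase of gene length the levels spanned a wide range, and the ends of this order were the same in both groups. Pabpn1 was highest, at 177 CPM per kilobase in deleted and 157 in intact cortex, before Papola at 75.7 in deleted and 76.7 in intact and Sympk at 60.5 in deleted and 59.4 in intact. Cpeb1 was lowest, at 0.298 CPM per kilobase in deleted and 0.304 in intact cortex. Among Integrator genes, Ints11 was highest in deleted cortex, at 40.3 CPM per kilobase, just above Ints3 at 39.1, whereas in intact cortex Ints3 was highest, at 40.1, before Ints10 at 37.3 and Ints11 at 33.9. Ints12 and Ints6 were the lowest, at 8.25 and 9.61 CPM per kilobase in deleted and 9.52 and 7.96 in intact cortex.

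Genes that start next to a member, in the opposite direction, moved with it in some pairs and against it in others. In GENCODE M21, 10 members had a tested protein-coding neighbour whose start lay within 1000 bases head to head, a comparison added after the values were seen. Both genes were called in 6 pairs, in the same direction in 2 and in opposite directions in 4. In the other 4 pairs 1 gene was called, and in 0 pairs neither was, where 63.5% of all tested genes were called. Dtl, a ubiquitin ligase adaptor gene of the replicating cell whose start lies 92 bases from that of Ints7, rose by 0.15 ± 0.06 (log2 ± SE, edgeR adjusted p = 0.0348), where Ints7 fell. It averaged 70.0 ± 1.99 CPM in deleted and 63.0 ± 5.59 CPM in intact cortex (SD, n = 4 each). Fgfr1op2 next to Ints13 rose by 0.41 ± 0.06 where Ints13 fell, Sdhaf2 next to Cpsf7 rose by 0.59 ± 0.05 where Cpsf7 fell, and Ptcd1 next to Cpsf4 fell by 0.10 ± 0.04 where Cpsf4 rose. Cptp and Itgb1bp1 rose together with Ints11 and Cpsf3, by 0.19 ± 0.06 and 0.19 ± 0.04. The exons of Itgb1bp1 and Cpsf3, of Sdhaf2 and Cpsf7 and of Fgfr1op2 and Ints13 overlap in part. Across the 40 genes the log2 fold change had a Spearman correlation of -0.11 with genomic span and of 0.01 with mean log2 CPM, against -0.14 (15623 genes) and -0.20 (16074 genes) over the genes tested. These points share the same 8 libraries and are described without a test.

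The genes of proteins that work with Integrator included the largest change in transcript level seen in this pathway. Nabp1, encoding a single-stranded DNA binding protein of the SOSS complex, had 19.1, 19.5, 18.5 and 19.7 CPM in the deleted libraries, against 6.25, 5.82, 5.79 and 6.55 CPM in the intact libraries. The deleted libraries were all far above the intact ones, and Nabp1 rose by 1.65 ± 0.06 (log2 ± SE, edgeR adjusted p = 1.54e-09). Its paralog Nabp2, named here beyond the rule for naming genes, fell by 0.26 ± 0.03 (edgeR adjusted p = 1.98e-05), with 62.3 to 63.6 CPM in deleted and 72.2 to 77.5 CPM in intact libraries. Of the 8 partner genes, 4 rose and 3 fell, where 30.6% of all tested genes rose and 32.9% fell. Wdr73, an Integrator-associated factor, rose by 0.52 ± 0.04, and Ppp2r1a, the scaffold of protein phosphatase 2A, fell by 0.28 ± 0.03.

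Of 23 regulators of termination, 10 rose and 6 fell. The 16 called are a share near the 63.5% called among all tested genes, 30.6% higher and 32.9% lower. Rprd1a, which binds the polymerase tail, rose to 98.0 ± 2.52 CPM in deleted cortex, against 72.8 ± 1.77 CPM in intact cortex (SD, n = 4 each). Ppp1r10, the PNUTS subunit of a phosphatase that slows the polymerase at poly(A) sites, rose by 0.47 ± 0.04 (log2 ± SE). Scaf8, a suppressor of premature termination, fell by 0.34 ± 0.03. Their median log2 fold change was 0.02.

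Of 20 genes of tail enzymes and tail binders, 3 rose and 8 fell, with a median of -0.04, beside 30.6% of all tested genes higher and 32.9% lower. With upper-quartile factors or library totals only, 6 rose and 6 fell. Paip2, an inhibitor of cytoplasmic poly(A) binding protein, and Tent4b, a non-canonical poly(A) polymerase, fell by 0.34 ± 0.03 and 0.35 ± 0.03 (log2 ± SE). Tob1, which recruits a deadenylase, rose by 0.60 ± 0.06. Of 21 regulators of poly(A) site choice, 3 rose and 10 fell, with a median of -0.10. The 13 called are a share near the 63.5% of all tested genes, of which 30.6% were higher and 32.9% lower. The uneven split of this list was not tested. Ptbp2, the neuronal polypyrimidine tract binding protein, had 208, 220, 211 and 230 CPM in the deleted libraries, against 381, 373, 370 and 367 CPM in the intact libraries. All deleted libraries were lower, and Ptbp2 fell by 0.78 ± 0.04 (edgeR adjusted p = 7.68e-09). Mbnl2 and the neuronal Elavl4 fell by 0.66 ± 0.06 and 0.50 ± 0.05, and Srsf7 rose by 0.18 ± 0.03. The other Elavl and Nova genes of the list are named here beyond the rule for naming genes. Elavl1, Elavl2 and Nova2 fell by 0.25 ± 0.03, 0.40 ± 0.04 and 0.47 ± 0.06. Elavl3 and Nova1 were not called (log2 fold change 0.01 ± 0.03 and -0.02 ± 0.05). The neuronal markers fell in the same libraries, to 5662 to 6165 CPM in deleted, against 7773 to 8539 CPM in intact cortex, and their part in these values was not tested. The counts are totals per gene, so that the use of poly(A) sites, readthrough and tail length were not analysed here.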

How the data were processed

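Per the labels' protocols, RNA was isolated with an RNeasy kit and made into unstranded TruSeq version 2 libraries of polyadenylated RNA. The submitters' processing notes name bcl2fastq 1.8.4, Subread 1.5.0, featureCounts and build mm10, without their roles. The authors deposited raw counts per gene with gene lengths, 1 file per embryo. The counting annotation and the handling of multi-mapping or overlapping reads were not stated. Numeric identifiers were matched to RefSeq symbols (GRCm38.p6): 25275 of 27179 matched, and the 1904 others stayed in totals and tests. These others held 1.13% to 1.64% of the counts in deleted and 0.490% to 0.530% in intact libraries.

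The analysis of counts used edgeR 4.0.16 (R 4.3.3) with filterByExpr, TMM factors (0.971 to 1.03) and the robust quasi-likelihood test over all 8 libraries, with no covariate, and Benjamini-Hochberg adjustment over all 16074 genes tested (threshold 0.05). The SE is the absolute log2 fold change over the root of the F statistic. CPM use the TMM-scaled library sizes; 3 counts correspond to 0.0670 to 0.0758 CPM of a library's total, counting error only. Changes against 1.5-fold used glmTreat. Alternatives used DESeq2 1.42.0 and limma 3.58.1, other scalings, filters and left-out libraries. Replicates of a group differed beyond sampling noise. Same-numbered libraries were from different animals, and the numbers were not treated as pairs. Exon overlaps and neighbours came from GENCODE M21 (GRCm38). Proteins were not compared, and Ints15 had no matching symbol, so both are not analysed here.

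The members and gene lists were chosen with earlier results of these data known. Values by library were to be given for up to 8 called members in each direction by absolute log2 fold change and for up to 2 members of each role that were not called, of which Ints14, Cpsf4l and Cpeb1 are given as means or ranges. From each pathway list up to 3 genes with the smallest p and 1 in the opposite direction were named. Pabpn1, Xrn2, Cpsf3 and Pcf11 were added to those given by library after their values were seen.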

Additional observations from a re-analysis of the deposited data

Results flagged for a closer look

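Among the 80 groups of 4 libraries examined (40 genes in 2 groups), 3 had a library apart from the others by Dixon's criterion on log2 CPM, where chance gives about 1 in 20 groups. Wdr33 was at 136 CPM in deleted library 1 and at 142 to 143 CPM in the other deleted libraries. Ints9 was at 48.7 CPM in intact library 3 and at 51.6 to 52.1 CPM in the other intact libraries. Cpsf1 was at 183 CPM in intact library 1 and at 174 to 175 CPM in the other intact libraries.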

How the results depend on the processing

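Under 20 alternatives that test for any change, 20 of the 24 called genes kept their call and none of the 40 reversed while called; DESeq2 and limma voom each called 13 higher and 11 lower, as edgeR did. Over these alternatives the log2 fold change was -0.98 to -0.90 for Ints7, 0.57 to 0.69 for Cpsf4, -0.45 to -0.38 for Cstf2t and 0.25 to 0.32 for Cstf2. Calls lost under some alternatives were those of Cpsf1, Cpsf7, Clp1 and Cpeb4, the last without deleted libraries 2 and 3 (adjusted p = 0.116) and without intact library 4 and deleted library 1 (adjusted p = 0.0669). Of the 16 genes not called, 4 were called higher under some alternatives: Ints14 in 8 of 20, Ints1 in 5, Ints9 in 3 and Cpsf4l in 1. Library totals only and upper-quartile factors each shifted the median log2 fold change of all genes by 0.06. Both gave 6 Integrator genes higher, 3 cleavage and polyadenylation genes lower and 6 tail genes higher, and keeping genes above 1 CPM in 4 libraries also gave 6 Integrator genes higher, since Ints1, Ints9 and Ints14 then passed; Cpeb1 had no value under that filter. Without 1 library at a time, 3 to 5 Integrator genes rose, with 5 without deleted library 4. Tested against a 1.5-fold change, 932 genes were higher and 816 lower. Of the 40 genes, 0 were higher and 1 lower, that is 0 and 1 Integrator genes and 0 and 0 cleavage and polyadenylation genes. In the same order, 1 and 0 Integrator partners, 0 and 0 termination regulators, 0 and 0 tail genes and 0 and 1 site choice regulators passed. The correlation of deviations between same-numbered libraries was -0.23, 0.02, -0.01 and -0.48. These values rest on 4 libraries per group and cannot decide whether the numbers pair the libraries. With the replicate block, 12 of the 40 genes rose and 11 fell, the call of Clp1 being lost (adjusted p = 0.0814). The depth of about 1 CPM for Cpeb1 limits its precision (SE 0.18).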
